A study of Rattus norvegicus with 5 samples.

Results

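The enzymes described here carry out glycolysis, the pyruvate dehydrogenase step, the citrate cycle and the pentose phosphate pathway. They were chosen by name: 38 enzyme genes were listed, and 32 had a probe whose single gene symbol in the platform's annotation was that gene, out of 5990 genes named in this way on the array. Dlat, Cs, Idh2, Ogdh, Fh and Pgd had no probe so named and were not analysed here. A gene with more than 1 probe is represented by its brightest, and for Gapdh, which has a second probe, both are given. The array held 1 signal per probe, and because probes differ in how they bind, the level of one probe is not set against that of another.

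Glycolysis splits glucose into pyruvate in the cytosol, and lactate dehydrogenase turns pyruvate into lactate. The pyruvate dehydrogenase complex instead feeds pyruvate into the mitochondrial citrate cycle, which supplies electrons to respiration. The pentose phosphate pathway branches off glucose 6-phosphate and yields NADPH and ribose. Myeloid cells are known for a high glycolytic rate when activated, and many glycolytic genes are targets of the hypoxia-inducible factor HIF-1.

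RNA came from blood cells of LEW.1A rats, taken 100 days after kidney transplantation and labelled as myeloid-derived suppressor cells (MDSCs), which are immature myeloid cells able to restrain T cells. Tolerant rats carried a LEW.1W kidney, mismatched at MHC class I and II, and had been treated with the anti-CD28 antibody JJ319 (3 arrays, n = 3). Syngeneic rats carried a LEW.1A kidney (2 arrays, n = 2), whereas the design text of the series counts 3 recipients a group; donor kidneys came from animals 8 to 12 weeks old for the allografts. The age of the recipients, not given in the sources used here, stays unknown. Both own kidneys were removed 7 days after life-sustaining allotransplantation, and the antibody dose, and whether syngeneic rats received any antibody, are not stated in the sources used here. In both groups MHC class II and CD3 bearing cells were depleted with beads before magnetic collection of cells bearing CD80 or CD86. Since no label says which animal an array came from, the spread behind each p-value may be partly or wholly technical.

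Median raw intensity ranged from 563 to 798 over the 5 arrays. A probe was called above background where it was brighter than 95% of the 482 probes for olfactory receptors, genes that blood cells should not use, on the same array (log2 10.76 to 11.17), which left 22.8% to 26.6% of probes above it. Syngeneic array 2 stood apart. Its correlations with the other 4 were 0.84 to 0.86, and those among the other 4 were 0.89 to 0.92. The monocyte genes Cd14 and Lyz2 were above background on all 5 arrays and the integrin Itgam on 4, but of the antigens of the sort Cd80 was at background on all 5 and Cd86 above it on 3. Of 6 MHC class II genes with a probe, 5 were above background on all arrays despite the depletion. Markers of other cells differed between the groups in both directions. Normalized intensities were summed over each marker list and the log2 taken, so the brightest probes weigh most. For 10 NK cell genes this sum was 12.91 to 13.55 on tolerant and 17.29 to 17.57 on syngeneic arrays. For 7 T cell genes it was 13.68 to 14.31 and 17.02 to 17.03. For 7 neutrophil genes it was 15.37 to 17.43 and 19.67 to 21.16, and for 5 erythroid genes 11.23 to 12.39 and 15.58 to 21.16. Sums were higher on tolerant arrays for 2 B cell genes, 14.78 to 17.52 against 12.52 to 14.03, and for 7 monocyte genes, 19.97 to 20.87 against 19.35 to 19.75. Not every gene of a list followed its sum. In the monocyte list the mean log2 values of Fcgr3a and Cx3cr1 were lower on tolerant arrays, by 0.82 and 1.11. Those of Cd14, Lyz2, Itgam, Ccr2 and Nr4a1 were higher, for Itgam and Ccr2 only with syngeneic 2 included. In the erythroid list Gata1 and Alas2 were at background on all arrays. In the NK cell list Klrk1 differed by -0.04 (tolerant minus syngeneic), at background on syngeneic 2 alone, and Ncr1 was at background on all arrays. In the T cell list Cd4 was higher on tolerant arrays by 0.22, only with syngeneic 2 included. Cd8a on syngeneic 2, at 9.68, lay below every tolerant array. All further genes of these lists with a probe had lower tolerant means. Erythroid signal was highest on syngeneic 2, where the globin Hbb stood at 20.30. In such bulk samples fewer cells of a type and less RNA per cell cannot be told apart, and the part these cells had in the enzyme values was not tested.

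Enzymes above background on all 5 arrays mostly varied little from array to array. Ldha and Tkt, at background on syngeneic 2 alone, fall outside that group and spread over 6.17 and 5.15 on the log2 scale. Of the 32 genes, 16 were above background on all 5 arrays, 7 were at background on all 5 (Hk2, Pfkm, Pfkfb3, Aldoc, Ldhb, Aco1 and Idh3g) and 9 lay between. In 11 of the 16 the highest and the lowest of the 5 arrays lay no more than 1 apart on the log2 scale, with Eno1 the tightest at 0.31 and Dld next at 0.33. Of 4426 tested probes above background on all arrays, 58.1% varied as little, against 68.8% of the enzymes, so this steadiness was common on the array. Among probes with a mean log2 of at least 15 the shares were 77.8% for 9 enzymes and 67.9% for all probes. Below 15 they were 57.1% for 7 enzymes and 55.4% for all probes. Over the 4 arrays other than syngeneic 2 the shares were alike. There 77.8% of 18 enzymes above background on those arrays stayed within 1, against 78.3% of all such probes.

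No enzyme passed the test between groups. Of the 31 genes that passed the signal filter (Pfkm did not), 0 had an adjusted p under 0.05 in limma with Benjamini-Hochberg adjustment over all 13428 tested probes, where 6 probes, 0.0447%, passed. An unadjusted p under 0.05 was reached by 1 enzyme, Pfkp, and by 5.37% of all tested probes. Differences, given throughout as tolerant minus syngeneic on the log2 scale, were negative for 19 enzymes and positive for 12, with a median of -0.071, against 0.0038 over all tested probes. The median was -0.43 without syngeneic 2 and 0.014 without syngeneic 1, and over all tested probes it was 0.0088 and -0.053 in the same fits. In 5 enzymes the groups did not overlap, all with lower tolerant values (Pfkp, Aldoc, Pdhb, Idh3a and Suclg1); over all tested probes 20.2% did not overlap, 10.4% with lower and 9.74% with higher tolerant values. For Gpi, Pgk1, Dld and Mdh2 the 95% interval of the difference lay inside -1 to 1, and for 15 of the 16 genes above background on all arrays it lay inside -2 to 2. The exception was Pdha1.

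**Figure D1:**
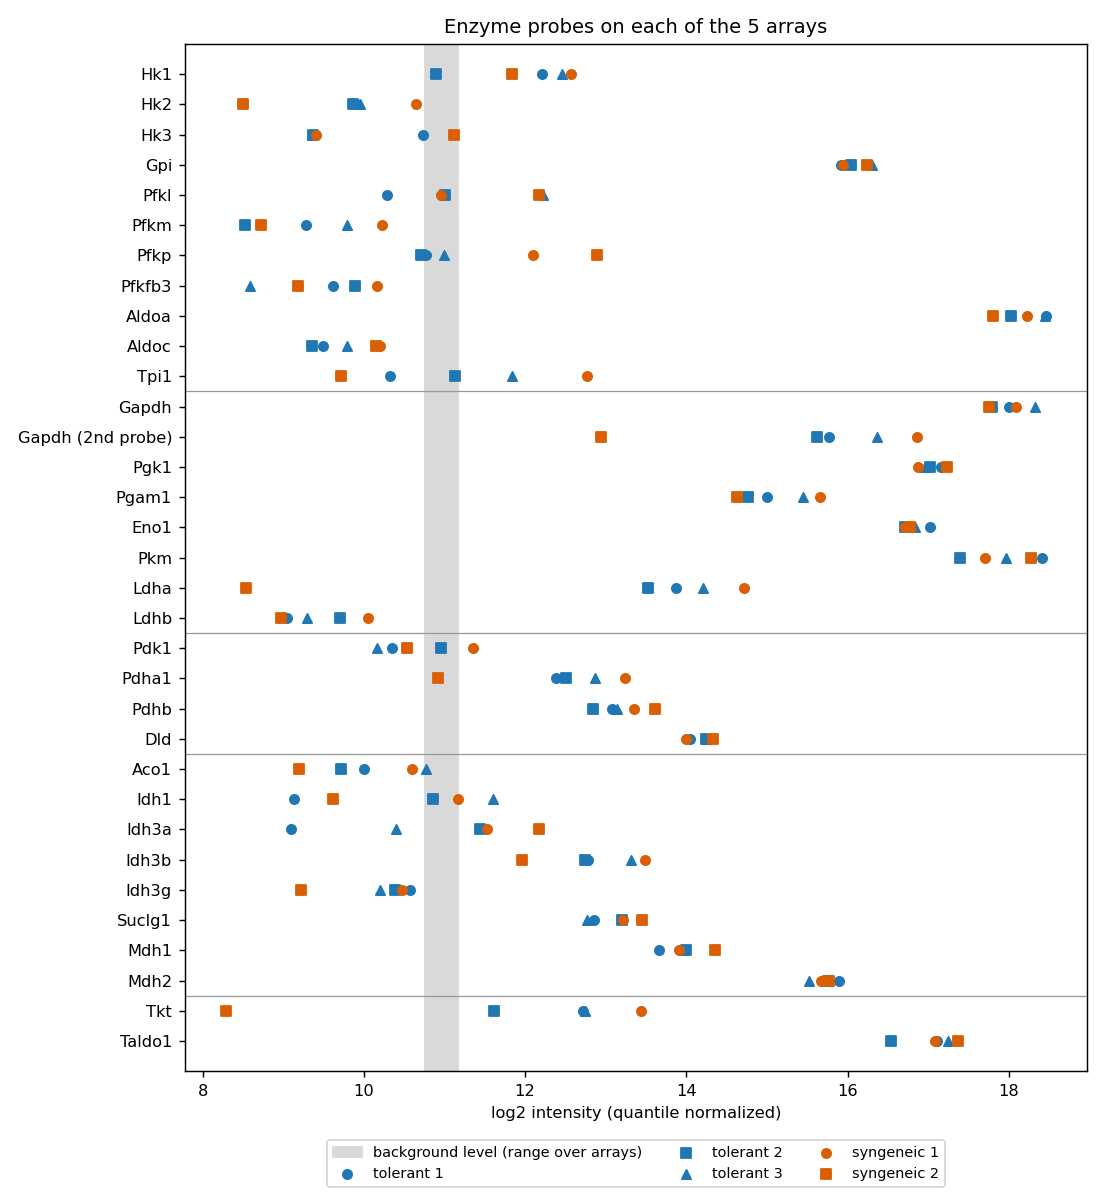
Log2 intensity (quantile normalized) of each enzyme probe on the 5 arrays, grouped from top to bottom as upper glycolysis, lower glycolysis and lactate, pyruvate dehydrogenase, citrate cycle and pentose phosphate pathway. The grey band spans the background levels of the arrays, 10.76 to 11.17; most bright probes have their 5 points close together, while Ldha and Tkt on syngeneic 2 lie far to the left of the other arrays.

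Glucose is first phosphorylated by hexokinases. Hk1, the broadly expressed form, read 12.21, 10.90 and 12.46 on tolerant arrays 1, 2 and 3, against 12.57 and 11.84 on syngeneic 1 and 2; this order is kept below. The groups overlapped, with tolerant 2 the lowest, and the difference was -0.35 (SE 0.60, adjusted p = 0.952). Hk2, the form induced by insulin and hypoxia in many tissues, was at background throughout, and Hk3, a hexokinase of white blood cells, was above it on syngeneic 2 alone, at 11.12. Gpi, which converts glucose 6-phosphate to fructose 6-phosphate, read 15.92, 16.04 and 16.30 in tolerant and 15.94 and 16.24 in syngeneic cells. The syngeneic values fell inside the tolerant range, with a difference of 0.00 (SE 0.39).

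Phosphofructokinase commits sugar to glycolysis, and its 3 subunit genes are named for liver (Pfkl), muscle (Pfkm) and platelets (Pfkp), although each is found in further tissues. Pfkp gave the largest negative difference of the enzymes and the smallest p. It read 10.77, 10.71 and 11.00 in tolerant and 12.10 and 12.89 in syngeneic cells. Each tolerant value lay near background, with tolerant 3 the single one above it, while both syngeneic values were clear of it. The means were 10.83 ± 0.15 (SD, n = 3) and 12.50 ± 0.56 (SD, n = 2), and the difference of -1.67 (SE 0.43, 95% interval -2.72 to -0.62) is partly measured against background (unadjusted p = 0.008, limma adjusted p = 0.631). It was -1.28 without syngeneic 2 and -2.06 without syngeneic 1. The platelet genes Ppbp and Nrgn were at background on all 3 tolerant arrays and above it on syngeneic 2 alone, at 11.63 and 12.82, and the NK and T cell sums given above were also higher in syngeneic cells; their part in the Pfkp value was not tested. Pfkl, at 10.29, 11.01 and 12.22 in tolerant and 10.96 and 12.17 in syngeneic cells, spread widely within both groups, which overlapped (-0.39, SE 0.70). On tolerant 1 Pfkl was at background. Pfkfb3, which makes the activator of phosphofructokinase, was at background on all arrays.

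The promoters of 3 enzymes whose values differ in kind are shown. Pfkp stands for its difference between groups and Ldha for its gap between the syngeneic arrays. Pdhb had no such gap, with its 5 arrays within 0.77, although its groups did not overlap. Sequences are from RefSeq on GRCr8, from 250 bases before to 50 after the start of the gene, 5′ to 3′ on the gene's strand, with capitals for ACGTG, the core of sites that HIF-1 can bind, on either strand (CACGT on the printed one).
Pfkp, GRCr8 chr17:68639563-68639862, + strand: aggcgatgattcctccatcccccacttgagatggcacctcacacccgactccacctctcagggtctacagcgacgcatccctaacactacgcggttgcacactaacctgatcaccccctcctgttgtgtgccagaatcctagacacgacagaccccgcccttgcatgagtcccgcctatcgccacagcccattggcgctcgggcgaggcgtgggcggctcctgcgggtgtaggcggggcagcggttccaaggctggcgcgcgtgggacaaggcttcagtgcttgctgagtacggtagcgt
Ldha, GRCr8 chr1:106507842-106508141, + strand: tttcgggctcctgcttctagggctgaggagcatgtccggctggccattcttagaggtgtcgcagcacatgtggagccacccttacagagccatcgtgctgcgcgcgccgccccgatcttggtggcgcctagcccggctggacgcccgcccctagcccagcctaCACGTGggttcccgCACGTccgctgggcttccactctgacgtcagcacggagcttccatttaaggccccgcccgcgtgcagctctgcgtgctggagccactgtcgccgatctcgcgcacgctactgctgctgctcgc
Pdhb, GRCr8 chr15:19182539-19182838, + strand: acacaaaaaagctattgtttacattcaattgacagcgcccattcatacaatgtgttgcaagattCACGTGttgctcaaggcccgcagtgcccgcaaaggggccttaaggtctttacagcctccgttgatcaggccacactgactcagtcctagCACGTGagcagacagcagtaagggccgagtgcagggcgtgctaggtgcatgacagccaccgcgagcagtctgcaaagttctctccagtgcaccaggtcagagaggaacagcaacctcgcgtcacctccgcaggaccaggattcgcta
Ldha holds 3 matches, 2 of them overlapping as the palindrome CACGTG, Pdhb holds 4, in 2 such palindromes, and Pfkp holds 0. Of 34 promoter windows found for 30 of the enzymes, 14 (41.2%) hold the core, against 19.3% of 33469 windows of the same length over all genes. CACGTG itself, also the binding site of other helix-loop-helix factors, is in 8.82% and 6.42%. GGGCGG, the GC box bound by Sp1, searched on both strands, is in 55.9% and 33.1%. These matches describe the windows alone.

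Aldolase splits fructose 1,6-bisphosphate and triosephosphate isomerase interconverts the products. Aldoa, the aldolase of muscle and blood cells, read 18.47, 18.03 and 18.45 in tolerant and 18.22 and 17.80 in syngeneic cells, with overlapping groups and a difference of 0.30 (SE 0.41). Aldoc, the brain form, was at background on every array, so its non-overlapping values carry no measured change. Tpi1 read 10.33, 11.14 and 11.83 on tolerant arrays, 12.77 on syngeneic 1 and 9.72 on syngeneic 2, and was at background on tolerant 1 and syngeneic 2. The syngeneic arrays bracketed the tolerant ones, and the difference of -0.15 (SE 0.96) was -1.67 without syngeneic 2 and 1.38 without syngeneic 1.

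In the later steps of glycolysis the groups overlapped for every enzyme above background. Pgk1, which makes the first ATP of glycolysis, read 17.16, 17.02 and 16.96 in tolerant and 16.87 and 17.23 in syngeneic cells, and its difference was 0.00 (SE 0.39, 95% interval -0.94 to 0.94). Eno1, enolase, read 17.02, 16.72 and 16.83 against 16.71 and 16.78, with a difference of 0.11 (SE 0.38). For both, the groups overlapped within a range of 0.36 or less. Pkm, pyruvate kinase, which makes the second ATP, ran from 17.39 to 18.41 in tolerant cells and read 17.71 and 18.28 in syngeneic cells (-0.07, SE 0.48). Pgam1, phosphoglycerate mutase, ran from 14.76 to 15.45 and read 15.65 and 14.63 (-0.07, SE 0.49). Syngeneic 1 was the highest of the 5 arrays for Pgam1 and syngeneic 2 the lowest. Many glycolytic genes have near-identical pseudogene copies, so these probes may also bind transcripts of such copies; probe sequences were not used here.

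The 2 probes for Gapdh, which oxidises glyceraldehyde 3-phosphate and is often used as a loading control, disagreed on 1 array. The first read 18.00, 17.79 and 18.32 in tolerant and 18.08 and 17.76 in syngeneic cells, a difference of 0.12 (SE 0.41). The second read 15.77, 15.62 and 16.37 in tolerant cells, 16.86 on syngeneic 1 and 12.94 on syngeneic 2. The log2 ratio of the first to the second was 1.22 to 2.23 on 4 arrays and 4.82 on syngeneic 2. The second probe's difference was therefore 1.02 (SE 1.10) over all arrays, -0.94 without syngeneic 2 and 2.98 without syngeneic 1.

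Ldha, the lactate dehydrogenase subunit that favours lactate formation, had the widest spread of any enzyme here. It read 13.87, 13.52 and 14.20 on tolerant arrays and 14.71 on syngeneic 1, but 8.54 on syngeneic 2, where it was at background. The tolerant arrays lay below syngeneic 1 and far above syngeneic 2. The deposited raw intensities show the same gap, with 7508, 11627 and 21124 on tolerant arrays, 29831 on syngeneic 1 and 373 on syngeneic 2. The difference was 2.24 (SE 1.65, adjusted p = 0.907), with a 95% interval of -1.77 to 6.26, and turned to -0.84 without syngeneic 2. Without syngeneic 1, which leaves syngeneic 2 as the lone comparison, it was 5.33. The spread in that fit is that of the tolerant arrays, with syngeneic 2 assumed to vary like them. Ldhb, the subunit of heart and other oxidative tissues, was at background on all arrays.

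**Figure D2:**
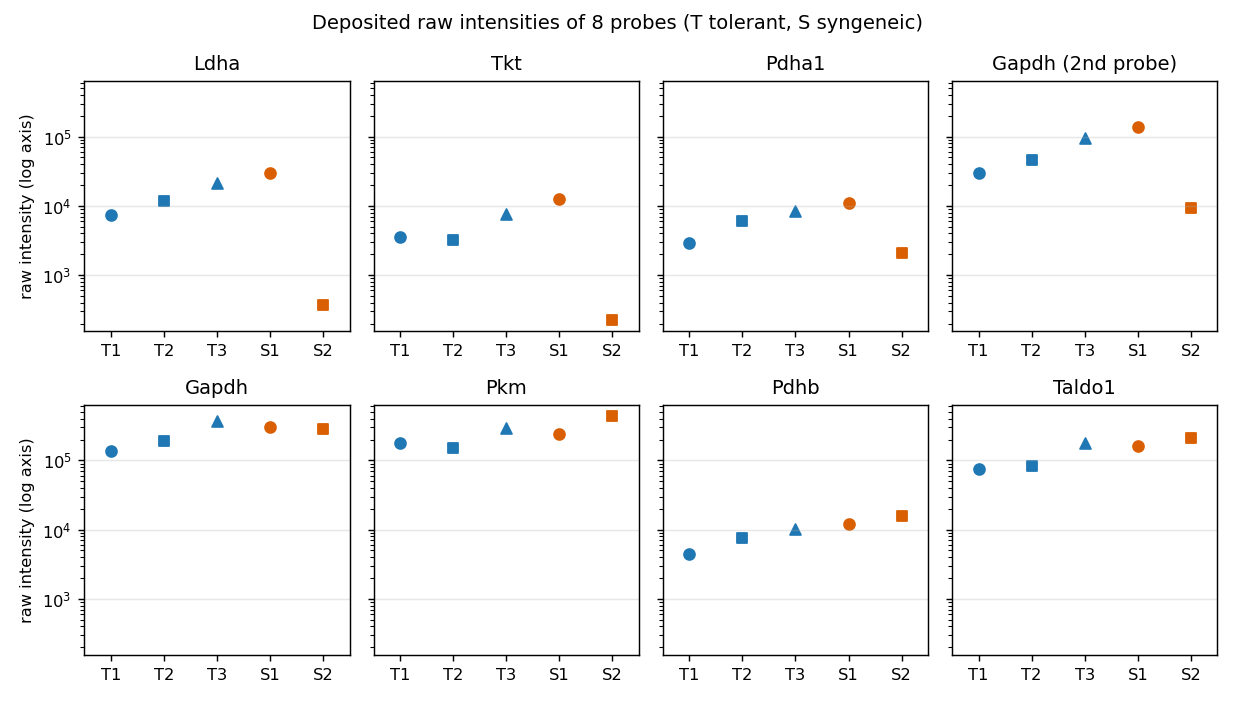
Deposited raw intensity (log axis) of 8 probes on tolerant arrays 1 to 3 (T1 to T3) and syngeneic arrays 1 and 2 (S1, S2), 1 point per array. Ldha read 29831 on S1 and 373 on S2, and Tkt 12535 and 226, whereas the first Gapdh probe, Pkm, Pdhb and Taldo1 show no such gap.

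Low values on syngeneic 2 were about as frequent among the enzymes as among other probes. Of 18 enzymes above background on the other 4 arrays, 3 were more than 1 below the lowest of them on syngeneic 2 (Ldha, Tkt and Pdha1), against 15.4% of 5050 such tested probes. At background on syngeneic 2 were 2 of the 18 (Ldha and Tkt), against 12.4%. The summed signals of the erythroid, platelet and neutrophil lists were highest on the same array, although single markers such as Cxcr2 (11.86 on syngeneic 1, 9.91 on syngeneic 2) and Slc4a1 (11.86 on tolerant 1, 10.94 on syngeneic 2) were not. Whether its RNA or hybridisation differed was not tested.

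In the pyruvate dehydrogenase complex the E1 enzyme is built from subunits encoded by Pdha1 and Pdhb. Pdha1 read 12.38, 12.50 and 12.87 on tolerant arrays, 13.25 on syngeneic 1 and 10.92 on syngeneic 2. Pdhb read 13.08, 12.84 and 13.14 in tolerant and 13.36 and 13.61 in syngeneic cells. For Pdha1 the syngeneic arrays were the highest and the lowest, while for Pdhb both lay just above every tolerant array. The Pdhb difference of -0.46 (SE 0.39, adjusted p = 0.907) was -0.34 without syngeneic 2, and that of Pdha1 was 0.50 (SE 0.72) and -0.66 without syngeneic 2. The log2 ratio of Pdha1 to Pdhb was -0.70, -0.34 and -0.27 on tolerant arrays, -0.11 on syngeneic 1 and -2.69 on syngeneic 2, so the subunit probes departed from each other on that array (exact two-sided permutation p = 0.6 between groups, where 3 against 2 arrays allow no p below 0.1). Dld, the E3 subunit shared with other dehydrogenase complexes, read 14.04, 14.25 and 14.25 against 14.00 and 14.33, a difference of 0.01 (SE 0.39, 95% interval -0.93 to 0.96). Pdk1, a kinase that switches E1 off, was above background on 1 tolerant and 1 syngeneic array, at 10.95 and 11.35.

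**Figure D3:**
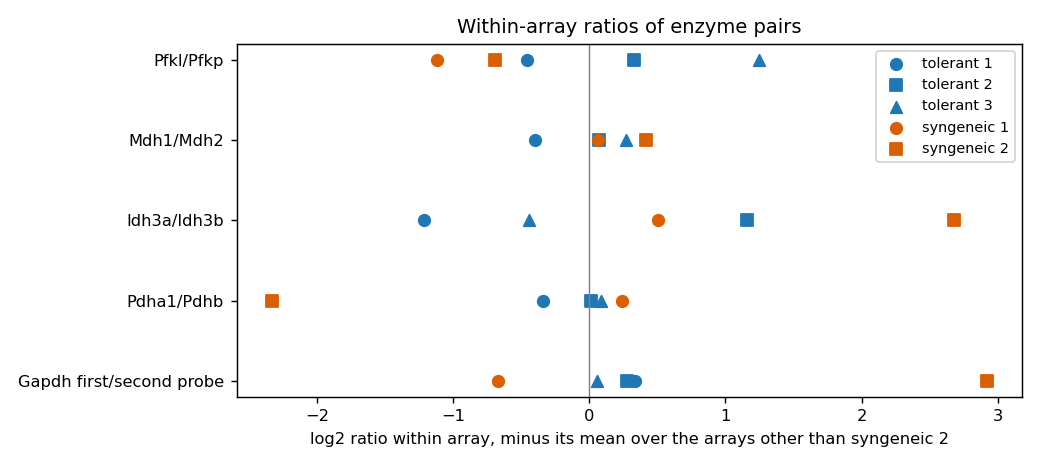
Log2 ratio of 2 probes within each array, shown minus its mean over the arrays other than syngeneic 2, for 4 enzyme pairs and the Gapdh probes. Pdha1 to Pdhb and the Gapdh probes depart on syngeneic 2, where their log2 ratios were -2.69 and 4.82, while Mdh1 to Mdh2 stays between -2.23 and -1.41 on all 5 arrays. Pfkp, Pfkl and Idh3a were not above background on every array.

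In the citrate cycle the malate dehydrogenases and succinyl-CoA ligase varied little. Mdh2, the mitochondrial malate dehydrogenase, read 15.89, 15.75 and 15.52 in tolerant and 15.67 and 15.77 in syngeneic cells, a difference of 0.00 (SE 0.39, 95% interval -0.94 to 0.94). Mdh1, its cytosolic partner in the malate-aspartate shuttle, read 13.66, 13.99 and 13.95 against 13.91 and 14.36 (-0.27, SE 0.40). The groups overlapped in both, and the ratio of Mdh1 to Mdh2 differed by -0.26 (exact two-sided permutation p = 0.5). Suclg1, a subunit of succinyl-CoA ligase, read 12.86, 13.20 and 12.77 against 13.21 and 13.45. Its groups did not overlap, although tolerant 2 and syngeneic 1 were all but equal (-0.39, SE 0.40).

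NAD-dependent isocitrate dehydrogenase is built from alpha, beta and gamma subunits. Only the beta subunit gene, Idh3b, was above background on all 5 arrays, so whether the 3 probes moved together cannot be judged. Idh3a, the catalytic alpha subunit, read 9.10, 11.44 and 10.41 in tolerant and 11.53 and 12.17 in syngeneic cells. Tolerant 2, the single tolerant array above background, came close to syngeneic 1. The difference was -1.53 (SE 0.73, 95% interval -3.31 to 0.25, adjusted p = 0.907), partly measured against background. It was -1.21 without syngeneic 2, -0.93 without tolerant 1 and -2.10 without tolerant 2. Idh3b read 12.78, 12.74 and 13.31 against 13.48 and 11.96, so that syngeneic 2 was the lowest array for the beta subunit and the highest for the alpha subunit. Its difference was 0.23 (SE 0.57), and -0.54 without syngeneic 2. Idh3g was at background on all arrays, as was Aco1, the cytosolic aconitase that also acts as an iron sensor. Idh1, the cytosolic NADP-dependent enzyme, ran from 9.13 to 11.60 in tolerant cells and read 11.16 and 9.61 in syngeneic cells (0.14, SE 0.86). On tolerant 1 and syngeneic 2 Idh1 was at background.

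Of the pentose phosphate enzymes, Taldo1 was even and Tkt was not. Taldo1, transaldolase, read 17.10, 16.54 and 17.24 in tolerant and 17.08 and 17.37 in syngeneic cells, overlapping, with a difference of -0.27 (SE 0.43, adjusted p = 0.947). Tkt, transketolase, read 12.72, 11.61 and 12.74 on tolerant arrays, 13.44 on syngeneic 1 and the floor of 8.29 on syngeneic 2. The raw intensities were 3543, 3258 and 7719 for tolerant cells, 12535 for syngeneic 1 and 226 for syngeneic 2. The difference of 1.50 (SE 1.43, adjusted p = 0.907) was -1.08 without syngeneic 2 and 4.07 without syngeneic 1. Both enzymes act in the non-oxidative branch, which joins the pathway to glycolysis.

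**Figure D4:**
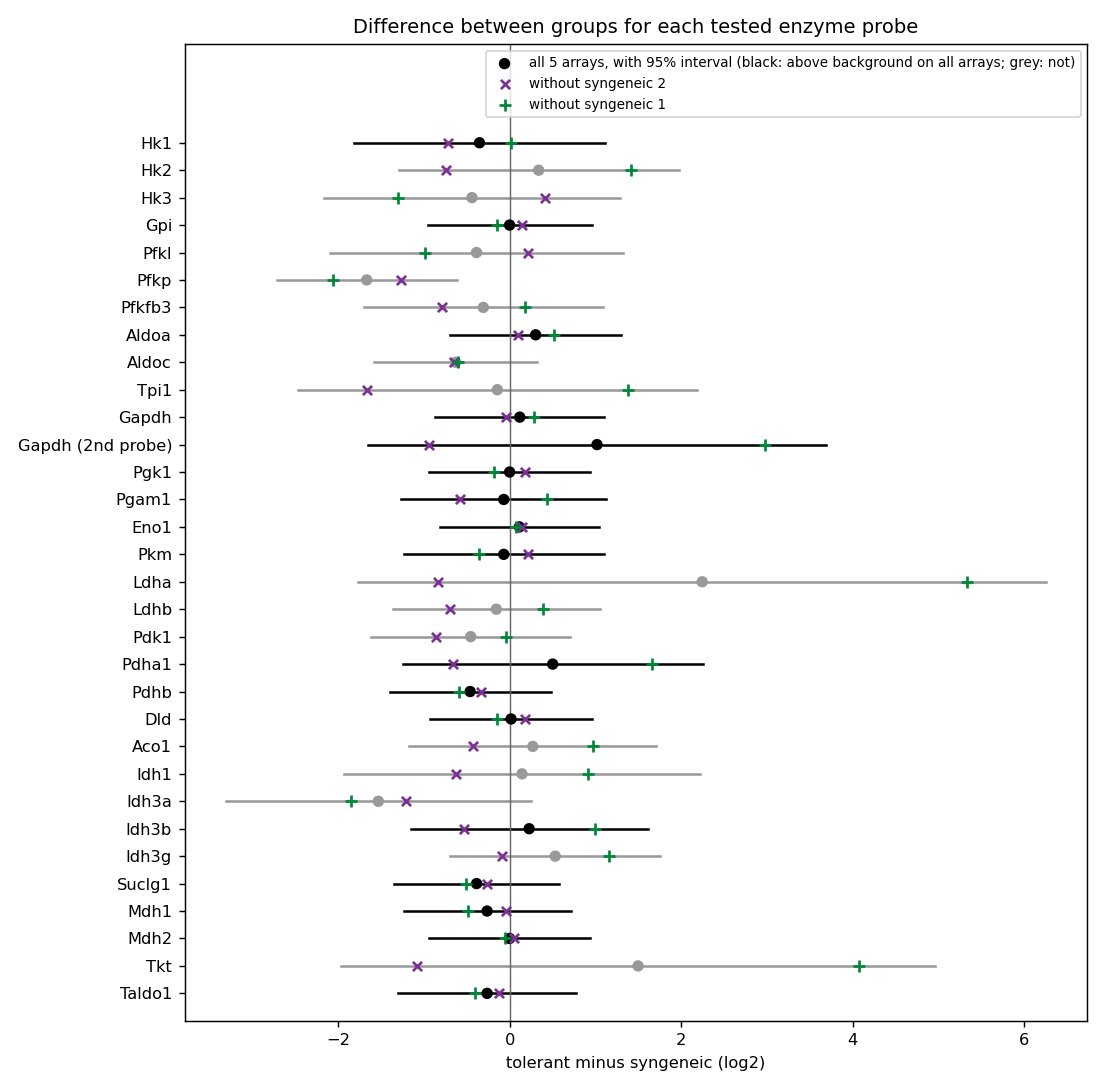
Tolerant minus syngeneic difference (log2) of each tested enzyme probe with its 95% interval from limma, and the same without either syngeneic array. Black marks probes above background on all arrays and grey the others; the interval excludes 0 for Pfkp alone (-2.72 to -0.62, adjusted p = 0.631), and the points for Ldha and Tkt change sides without syngeneic 2.

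Of 70 other listed genes of these pathways, 45 had a probe and 28 passed the signal filter; 0 passed the test, 0 had an unadjusted p under 0.05, 10 were positive and 18 negative, and the median was -0.16 (0.091 without syngeneic 2). The groups did not overlap in 3 of the 28 (Mpc1, Pfkfb4 and Egln2), all with higher tolerant values, as in 9.74% of all tested probes. Among transporters, Mpc1, a subunit of the mitochondrial pyruvate carrier, read 16.33, 16.06 and 16.02 in tolerant and 15.78 and 15.53 in syngeneic cells, a difference of 0.48 (SE 0.39, adjusted p = 0.907). The tolerant arrays all lay above the syngeneic ones. Slc16a3, a lactate exporter, was at background on all arrays. Slc2a1, the glucose transporter GLUT1, and Hif1a, the regulated HIF-1 subunit, were named after their values were seen; Slc2a1 ran from 14.54 to 14.93 over the 5 arrays and Hif1a from 13.23 to 13.94.

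Bpgm, which makes the 2,3-bisphosphoglycerate that tunes haemoglobin in red cells, read 12.00, 12.32 and 12.13 on tolerant arrays, 11.73 on syngeneic 1 and 15.58 on syngeneic 2. It was high on the array where Hbb was highest, at 20.30 against 14.49 on syngeneic 1 and the floor of 8.29 on tolerant arrays; the part of red cells in the Bpgm value was not tested. Its difference was -1.51 (SE 1.07, adjusted p = 0.907), and 0.42 without syngeneic 2. Prps2, which turns ribose 5-phosphate into the precursor of nucleotides, read 12.55, 13.44 and 12.32 against 13.36 and 14.82 (-1.32, SE 0.61), a difference of -0.59 without syngeneic 2. Its relative Prps1 differed by -0.10 (SE 0.40), and by 0.14 without syngeneic 2. Egln2, a prolyl hydroxylase that marks HIF subunits for degradation, read 13.03, 12.83 and 12.47 against 12.23 and 11.66 without overlap (0.84, SE 0.43, adjusted p = 0.907), and Vhl, which binds the marked subunits, differed by -0.34 (SE 0.53), and by 0.16 without syngeneic 2. Pfkfb4 and Pdk2, a regulator of phosphofructokinase and a kinase of pyruvate dehydrogenase, were at background on all arrays, and Acly, ATP citrate lyase, was above it on 1 array of each group.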

How the data were processed

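RNA was measured on 5 arrays of the Applied Biosystems rat genome survey microarray, with digoxigenin-labelled cRNA, per the labels' protocols. The authors deposited a raw table of linear intensity per probe, without normalization between arrays; any background subtraction, scanner software or flag is not stated in them. The log2 values of the authors' series matrix equal quantile-normalized raw intensities to within 0.000102, so no gene was centred.

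Groups were taken from sample titles. Raw values were normalized by quantiles, raised to a floor at their 10th percentile (log2 8.29) and tested with limma 3.58.1 in R 4.3.3 over 13428 of 26857 probes (mean log2 at or above 9.40; 1 probe with a missing value was left out), with Benjamini-Hochberg adjustment. Intervals are at the 95% level, and the number of arrays limits precision. The fit was tested on simulated data. Pair ratios used exact permutation over arrays. Of 6104 probes with 1 symbol, 6081 Entrez identifiers matched RefSeq; 70 probes have several symbols and 20683 are unlisted. No slide or scan label was available here, so batches could not be tested. Alternatives were the deposited values, normexp, median scaling, no filter, a replicate block and leaving out each array. Members, gene lists and the background rule were chosen with earlier results of these data known. The text names every enzyme with a probe, the 2 smallest p of each further list (genes outside this are said to be so), and the leading markers.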

Additional observations from a re-analysis of the deposited data

How the results depend on the processing

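Leaving out 1 array turned the sign of several differences. The count of 6 probes called over all genes was 0 with normexp (720 with an unadjusted p under 0.05), 0 without the signal filter (1759), 0 with the replicate number as a block (474), 53 under median scaling, all lower, and from 0 to 91 when 1 array was left out, 91 being without syngeneic 1, where the spread is that of the tolerant arrays alone, and 0 without any other. Apart from the fit without syngeneic 1, the enzymes called stayed at 0 in limma, with 1 or 2 at an unadjusted p under 0.05. In the fit without syngeneic 1, which leaves 1 syngeneic array, Ldha had the difference of 5.33 given above. No label says that the numbers in the titles pair samples. Deviations of same-numbered arrays from their group means correlated at -0.10 and 0.02. With 2 syngeneic arrays the deviation of 1 mirrors that of the other. These values are therefore not independent and cannot decide whether arrays were paired. The enzyme median was -0.34 under median scaling, which moved the median of all tested probes by -0.17, and ran from -0.43 to 0.014 with 1 array left out. The median of the other pathway genes ran from -0.24 to 0.091.

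The signs that turned, among the enzymes and the further genes with a printed difference, were these; apart from the fits themselves, the cause was not tested. Under median scaling Aldoa was -0.079, Dld -0.31, Eno1 -0.27 and Gapdh -0.26. With the replicate block Aco1 was -0.037, Dld -0.019, Gapdh -0.026, Idh1 -0.39, Mdh2 0.10, Pfkfb3 0.078 and Pgk1 0.041. With 1 array left out the differences ran from -0.43 to 0.97 for Aco1, -0.15 to 0.18 for Dld, -0.048 to 0.28 for Gapdh, -0.94 to 2.98 for its second probe, -0.15 to 0.15 for Gpi, -0.72 to 0.12 for Hk1, -0.74 to 1.41 for Hk2, -1.30 to 0.42 for Hk3 and -0.63 to 0.92 for Idh1. They ran from -0.54 to 0.99 for Idh3b, -0.10 to 1.16 for Idh3g, -0.84 to 5.33 for Ldha, -0.70 to 0.38 for Ldhb, -0.088 to 0.10 for Mdh2, -0.66 to 1.66 for Pdha1, -0.79 to 0.18 for Pfkfb3, -0.99 to 0.22 for Pfkl and -0.58 to 0.44 for Pgam1. For Pgk1 they ran from -0.18 to 0.18, for Pkm -0.36 to 0.22, for Tkt -1.08 to 4.07 and for Tpi1 -1.67 to 1.38, and of the further genes for Bpgm -3.43 to 0.42, for Prps1 -0.34 to 0.14 and for Vhl -0.84 to 0.16. The within-array ratio ran from -2.70 to 0.89 for the Gapdh probes and from -0.32 to 2.25 for Pdha1 to Pdhb.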
